A study of Mus musculus with 31 samples.

Results

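The 10 skeletal muscle genes described here are Acta1, Tnnt3, Tnni2, Tnnc2, Myh4, Mylpf, Actn3, Ckm, Pvalb and Mb. They were chosen by gene name and make up 10 of the 46072 genes listed in each library. All 10 were found, and all 10 passed the filter on low values in both tumor models. Their summed level varied 772-fold among 15 RM9 tumors and 1353-fold among 16 MC38 tumors, and mice of the same group differed by more than 10-fold in 6 of the 8 groups.

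Messenger RNA was sequenced from tumors of 31 mice, 1 library per mouse, to follow how tumor gene expression responds to radiation therapy (RT). RM9 is a mouse prostate cancer line and MC38 a mouse colon cancer line, and both were grown subcutaneously on the right hind leg of wild-type male C57BL/6J mice aged 6 to 7 weeks. Tumors of about 8 mm in diameter received no treatment (Control) or a single dose of 15 Gy and were taken 3, 12 or 24 h later (RT 3h, RT 12h and RT 24h). Each group held 4 mice, except RM9 RT 24h with 3. The Control mice carry the 3 h time point in their labels, so the RT 12h and RT 24h groups had no Control of their own time, and the 3 comparisons of a tumor model share the same 4 Control mice. RNA came from tumor tissue, with whatever host cells each piece held. The labels call both tumors adenocarcinoma. In RM9 tumors the epithelial keratin gene Krt8 lay between 463 and 1069 TPM, whereas in MC38 tumors Krt8, Krt18, Krt19 and Epcam had a median of 0 TPM. Not every marker looked at split the models this way. Epcam had a median of only 1.15 TPM in RM9. The epithelial cadherin gene Cdh1 had a median of 0.441 TPM in RM9 and 0.566 TPM in MC38, and Vim of 1614 and 1152 TPM.

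Levels are given in TPM, an abundance that the authors scaled to the same total in every library. TPM corrects for transcript length, so levels of different genes can be set side by side. The libraries held 21.4 to 29.4 M reads, and 1 TPM of Ckm stood for about 71.1 reads, so a Ckm level under 0.1 TPM rests on a handful of reads. Mitochondrially encoded transcripts took 47.3% to 57.2% of TPM in RM9 and 22.5% to 40.6% in MC38 libraries. This difference and the tumor model cannot be told apart.

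Skeletal muscle fibres contract by sliding thick myosin filaments along thin actin filaments. Calcium binding to troponin C moves the troponin complex and frees actin for myosin, the Z-disc anchors the thin filaments, and creatine kinase keeps ATP supplied at the filaments. Fast and slow fibres use different genes for the same parts: Myh4 encodes the myosin heavy chain of the fastest fibres of the mouse, which make up most of the limb muscles, and Myh7 that of slow fibres. In bulk tissue, fewer muscle cells and less muscle RNA per cell cannot be told apart.

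The upstream sequences of 4 of the 10 genes are shown as a description. There is 1 for each part of the filament they serve and for which a RefSeq start was at hand. Windows of 300 bases around RefSeq starts (build GRCm38.p6) were found for 7 of the 10 genes, 10 windows in all, and Tnnt3, Tnni2 and Actn3 are named only. The 120 bases that end at the base before the start are written 5′ to 3′ on the strand of the gene. Capitals mark the letters TATAAA, the E-box letters CANNTG, bound by the MyoD family, and the CArG box, bound by serum response factor.
Acta1, chr8:123894776-123894895, minus strand: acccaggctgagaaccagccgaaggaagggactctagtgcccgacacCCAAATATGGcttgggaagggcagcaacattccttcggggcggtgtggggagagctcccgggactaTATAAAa
Myh4, chr11:67237692-67237811, plus strand: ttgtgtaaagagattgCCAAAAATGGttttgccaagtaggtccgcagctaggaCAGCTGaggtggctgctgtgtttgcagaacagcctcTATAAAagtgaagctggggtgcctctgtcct
Mylpf, chr7:127211488-127211607, plus strand: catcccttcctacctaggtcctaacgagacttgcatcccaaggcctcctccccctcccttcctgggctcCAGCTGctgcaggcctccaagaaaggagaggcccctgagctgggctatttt
Tnnc2, chr2:164779735-164779854, minus strand: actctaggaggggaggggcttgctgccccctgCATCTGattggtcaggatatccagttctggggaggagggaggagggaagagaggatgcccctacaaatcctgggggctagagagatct

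Both strands were searched. Of the 10 windows of these genes, 9 held an E-box, as did 72.3% of 32851 windows of all genes, so an E-box is common at any start. A CArG box stood in 2 of the 10 windows (Acta1 and Myh4) and in 1.63% of all windows, and a MEF2 box in 2 (Myh4 and Pvalb) and in 1.86%. The letters TATAAA, which can overlap a MEF2 box, stood in 2 of 10 and 13.6%, and the MCAT letters CATTCC in 2 of 10 and 14.7%. A match of letters is a description of these windows only.

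To see how much muscle RNA each tumor held, the TPM of the 10 genes was summed in every library. In RM9 tumors the sum was 2708, 1586, 282 and 1285 TPM in Control mice 1 to 4. It was 30.3, 1063, 4.08 and 6.72 TPM at RT 3h, 3.51, 20.6, 1102 and 96.4 TPM at RT 12h, and 2685, 270 and 714 TPM at RT 24h. All 4 RM9 Control mice were high or intermediate, each irradiated group held at least 1 mouse above 700 TPM, and RT 3h and RT 12h held 3 mice each below 100 TPM. In MC38 tumors the sum was 13860, 23.1, 172 and 2248 TPM in Control mice 1 to 4. It was 1416, 3678, 98.7 and 595 TPM at RT 3h, 40.4, 564, 20.4 and 10.2 TPM at RT 12h, and 4361, 15.0, 1360 and 148 TPM at RT 24h. MC38 Control alone spanned nearly the whole range of its model, with the highest and the fourth lowest of 16 values, and only RT 12h held no mouse above 1000 TPM.

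**Figure D1:**
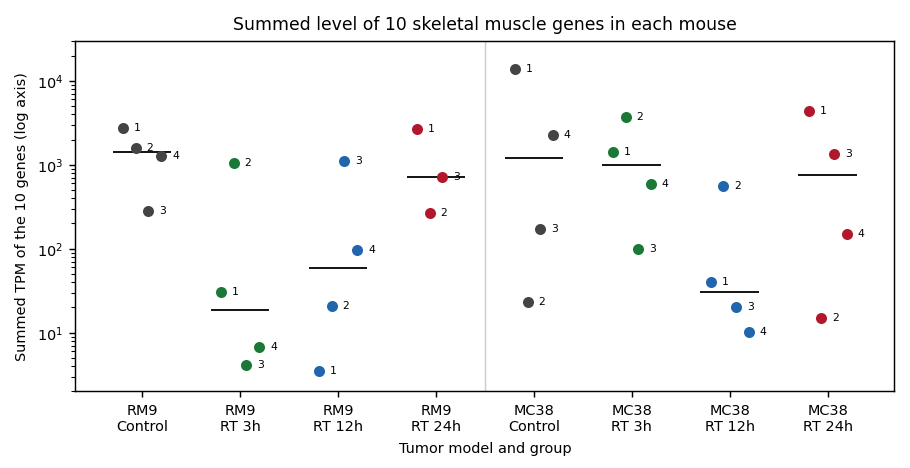
Summed TPM of the 10 skeletal muscle genes in each mouse (log axis), by tumor model and group. Points are mice with their number, and lines are group medians; RM9 libraries run from 3.51 to 2708 TPM and MC38 libraries from 10.2 to 13860 TPM, and each RT group overlaps its Control.

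The median library held 282 TPM in RM9 and 368 TPM in MC38 tumors. In the highest library, MC38 Control mouse 1, the 10 genes took 1.39% of all TPM, and 2.33% of the TPM left without mitochondrially encoded genes. At least 1 of the 10 genes was listed at 0 in 4 RM9 and 5 MC38 libraries. On the log2(TPM + 0.5) scale, the SD between mice of the same group was 1.57 to 3.03 for the 10 genes in RM9, where the median over 14013 genes was 0.191. In MC38 it was 1.49 to 3.63, against a median of 0.247 over 15698 genes. All 10 genes in RM9 and 9 in MC38 stood among the 100 genes that varied most within groups.

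Of the thin filament, Acta1, skeletal muscle actin (chromosome 8, 123891767 to 123894736, minus strand, in the coordinates of the files, which match GRCm38), was the most abundant of the 10 genes. In RM9 tumors it lay at 860, 471, 99.4 and 337 TPM in Control mice 1 to 4, at 13.3, 341, 0.341 and 0.658 TPM at RT 3h, at 0.201, 8.11, 355 and 26.6 TPM at RT 12h, and at 903, 83.3 and 221 TPM at RT 24h. In MC38 tumors it lay at 3222, 6.09, 41.8 and 529 TPM in Control, at 346, 1036, 27.4 and 178 TPM at RT 3h, at 12.4, 164, 4.97 and 1.16 TPM at RT 12h, and at 1286, 3.73, 390 and 53.9 TPM at RT 24h. RM9 RT 3h mouse 2 and RT 12h mouse 3 were within the range of their Controls, whereas the other 3 mice of each of these groups were below the lowest Control. Of the 1372 stretches of 75 bases in the Acta1 transcript, the length of 1 read, 6 (0.437%) also occur in Actb or Gm47692.

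Tnnt3, Tnni2 and Tnnc2 encode the fast troponins T, I and C, the calcium switch of the thin filament. Tnnt3 and Tnni2 lie close together on the plus strand of chromosome 7, at 142498836 to 142516009 and 142441808 to 142444410, and Tnnc2 on the minus strand of chromosome 2, at 164777161 to 164779967. Tnnt3 ran from 1.57 to 476 TPM in RM9 and from 0.434 to 2213 TPM in MC38 tumors and was detected in all 31 libraries. Tnni2 ran from 0.572 to 274 TPM and from 0.844 to 1588 TPM, also with no library at 0. Tnnc2 ran from 0 to 267 TPM and from 0 to 1639 TPM, and was listed at 0 in 3 RM9 libraries and 1 MC38 library. Tnnt3, which has 23 coding transcripts in GENCODE M21, had a deposited FPKM that was 5.00 times that implied by its read coverage over the whole gene model (3.83 to 5.73 times across libraries), and Tnni2 1.94 times. For the other 8 genes this ratio was 1.00 to 1.36. The reason was not tested, and levels of Tnnt3 and Tnni2 against other genes carry this uncertainty.

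Of the thick filament, Myh4 (chromosome 11, 67238029 to 67260446, plus strand) was at 114, 52.8, 7.74 and 50.7 TPM in RM9 Control mice 1 to 4, at 0.134, 42.1, 0.00951 and 0 TPM at RT 3h, at 0, 0.0722, 44.6 and 3.64 TPM at RT 12h, and at 122, 8.26 and 31.5 TPM at RT 24h. In MC38 tumors it was at 571, 0, 5.33 and 90.1 TPM in Control, at 55.3, 184, 1.42 and 22.6 TPM at RT 3h, at 0.226, 24.9, 0.269 and 0 TPM at RT 12h, and at 215, 0, 44.7 and 0.498 TPM at RT 24h. Thus 5 of 31 libraries listed Myh4 at 0, of which 1 was an MC38 Control. Of its 5942 stretches of 75 bases, 9.68% also occur in other genes, mainly Myh1, Myh8 and Myh2, so a small part of its reads cannot be told apart from theirs. Mylpf, the fast regulatory light chain (chromosome 7, 127211608 to 127214298, plus strand), ran from 0.950 to 226 TPM in RM9 and from 2.82 to 1714 TPM in MC38 tumors, and no library listed it at 0.

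Actn3, the fast-fibre actinin of the Z-disc (chromosome 19, 4861223 to 4877909, minus strand), ran from 0.173 to 56.0 TPM in RM9 and from 1.68 to 303 TPM in MC38 tumors. Its lowest MC38 levels were close together: Control mouse 2 had 1.68 TPM, RT 12h mice 1, 3 and 4 had 2.58, 2.77 and 3.40 TPM, RT 24h mouse 2 had 2.81 TPM and RT 3h mouse 3 had 3.31 TPM. In the 3 RT 12h mice Ckm was at 2.36, 2.08 and 1.10 TPM, so at this low end Actn3 and Ckm did not keep the same order.

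Ckm, muscle creatine kinase (chromosome 7, 19411094 to 19421583, plus strand), regenerates ATP beside the filaments. In RM9 tumors it was at 411, 230, 40.1 and 216 TPM in Control, at 0.529, 155, 0 and 0.235 TPM at RT 3h, at 0, 0.340, 144 and 12.2 TPM at RT 12h, and at 411, 34.4 and 94.9 TPM at RT 24h. In MC38 tumors it was at 2063, 1.59, 22.1 and 296 TPM in Control, at 191, 589, 8.52 and 88.5 TPM at RT 3h, at 2.36, 60.7, 2.08 and 1.10 TPM at RT 12h, and at 677, 1.28, 164 and 8.67 TPM at RT 24h. The mean was 224 ± 151 TPM in RM9 Control and 596 ± 987 TPM in MC38 Control (SD, n = 4 each), so in MC38 Control the SD exceeded the mean.

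Pvalb, parvalbumin (chromosome 15, 78191114 to 78206400, minus strand), is the calcium buffer that speeds relaxation of fast fibres. It was listed at 0 in 4 RM9 and 5 MC38 libraries, more often than any other of the 10 genes, and reached 50.4 and 500 TPM. In RM9 Control mice it was at 50.4, 40.2, 4.74 and 41.3 TPM, so mouse 3 stood apart there. Mb, myoglobin (chromosome 15, 77015489 to 77050670, minus strand), the oxygen store of oxidative fibres and of the heart, was the lowest of the 10 genes on average. It was at 5.94, 9.12, 0.962 and 0.286 TPM in RM9 Control, at 0.328, 4.42, 0 and 0.0542 TPM at RT 3h, at 0, 0.466, 7.14 and 0.449 TPM at RT 12h, and at 8.12, 1.31 and 3.47 TPM at RT 24h. In MC38 tumors it was at 47.0, 0.969, 1.73 and 9.61 TPM in Control, at 14.6, 7.26, 4.40 and 4.55 TPM at RT 3h, at 0.701, 2.64, 0.799 and 0.317 TPM at RT 12h, and at 7.94, 0.683, 13.8 and 5.42 TPM at RT 24h. Mb did not keep the order of the other genes: RM9 Control mouse 4 had 0.286 TPM of Mb beside 216 TPM of Ckm, whereas mouse 3 had 0.962 TPM beside 40.1 TPM.

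**Figure D2:**
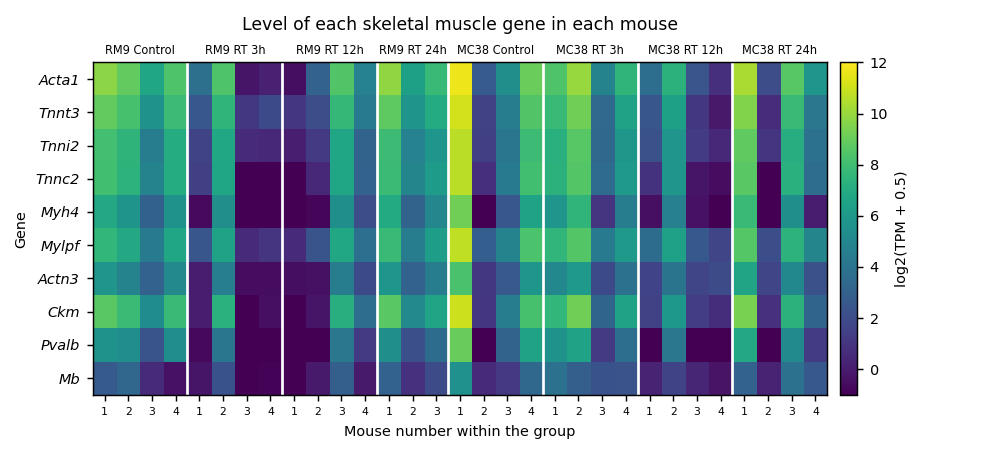
Level of each of the 10 genes (rows) in each mouse (columns, mouse number within the group) as log2(TPM + 0.5), from dark (low) to yellow (high). Whole columns are bright or dark, such as MC38 Control mouse 1 with a sum of 13860 TPM and RM9 RT 12h mouse 1 with 3.51 TPM, and Mb is the lowest of the 10 genes on average but reaches 47.0 TPM in MC38 Control mouse 1.

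To determine whether RT changed these genes, each RT group was compared with the Control mice of its model with limma on log2(TPM + 0.5). Fold changes are on that scale, which understates those of genes near 0, and p-values were adjusted over all genes tested. In RM9 tumors at RT 3h, all 10 genes had a negative log2 fold change, with a median of −4.42 (median over 14054 genes, 0.055), and limma called 0 of the 10 at an adjusted p under 0.05, where it called 0.199% of all genes higher and 0.0285% lower. At an unadjusted p under 0.05, 9 of the 10 passed, all lower and all but Mb, where 15.7% of all genes were higher and 6.13% lower. Ckm had the most negative value, −5.94 ± 1.85 (SE, adjusted p = 0.125), and Mb the least negative, −1.49 ± 0.97 (adjusted p = 0.357). Every gene's RT 3h range overlapped its Control range, for Mb through mice 1 and 2 and for the other 9 genes through mouse 2, where 9.85% of all genes were higher and 2.87% lower without overlap.

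At RT 12h in RM9 tumors, the 10 log2 fold changes were again all negative, from −5.01 ± 1.85 for Ckm (SE, adjusted p = 0.0896) to −1.09 ± 0.97 for Mb (adjusted p = 0.457), with a median of −3.89 (all genes, −0.19). limma called 0 of the 10, where 0.0712% of all genes were called higher and 8.26% lower. At an unadjusted p under 0.05, 9 passed, all lower and all but Mb, where 0.541% of all genes were higher and 30.5% lower. All ranges overlapped, where 0.242% of all genes were higher and 19.4% lower without overlap. The count rested on single mice. Without RT 12h mouse 3, whose sum was 1102 TPM, limma called 7 of the 10 lower, all but Acta1, Mylpf and Mb, beside 7.39% of all genes, and without Control mouse 3 it called Pvalb alone, beside 11.2%. Ckm had a log2 fold change of −6.60 (adjusted p = 0.0419) without RT 12h mouse 3.

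At RT 24h in RM9 tumors, 9 of the 10 genes had a negative and Mb a positive log2 fold change, with a median of −0.47 (all genes, −0.040). limma called 0 of the 10 (all genes, 0% in either direction), and 0 passed an unadjusted p under 0.05 (all genes, 2.02% higher and 2.89% lower). Pvalb had −0.93 ± 1.41 and Mb 0.45 ± 1.04 (SE), both smaller than their SE. Of the 70 values obtained by leaving out each mouse of the 2 groups for each gene, 14 changed sign. Without RT 24h mouse 2, 1 of the 10 was negative, and without Control mouse 1, 5 were. All ranges overlapped, where 2.01% of all genes were higher and 2.23% lower without overlap.

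In MC38 tumors at RT 3h, 7 of the 10 genes had a positive log2 fold change, with a median of 0.28 (median over 15724 genes, 0.19), and values ran from −0.23 ± 1.37 for Actn3 to 0.48 ± 1.97 for Acta1 (SE). limma called 0 of the 10 (all genes, 0.0509% higher and 0.0127% lower), and 0 passed an unadjusted p under 0.05 (all genes, 18.1% higher and 1.84% lower). The direction was not stable: leaving out 1 mouse changed the sign of 34 of 80 values, and without Control mouse 2 all 10 were negative, with a median of −1.32, whereas without Control mouse 1 all 10 were positive, with a median of 1.83. All ranges overlapped (all genes without overlap, 7.19% higher and 0.973% lower).

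At RT 12h in MC38 tumors, all 10 genes had a negative log2 fold change, from −4.50 ± 2.19 for Tnnc2 (SE, adjusted p = 0.113) to −2.14 ± 1.37 for Actn3 (adjusted p = 0.217), and the median was −3.62 (all genes, 0.33). limma called 0 of the 10 (all genes, 28.4% higher and 2.58% lower). Mb, with −2.15 ± 0.92 (adjusted p = 0.0783), was the only one to pass an unadjusted p under 0.05 (all genes, 44.0% higher and 4.06% lower). All ranges overlapped, where 34.5% of all genes were higher and 1.97% lower without overlap. Without Control mouse 2, whose sum was 23.1 TPM, limma called 7 of the 10 lower, all but Acta1, Myh4 and Actn3, beside 33.2% of all genes in either direction. Without Control mouse 3 it called Mb alone, with −2.65 (adjusted p = 0.0373), beside 46.3%.

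At RT 24h in MC38 tumors, the 10 values were negative, from −1.32 ± 2.19 for Tnnc2 to −0.22 ± 0.92 for Mb (SE), with a median of −0.91 (all genes, 0.22). limma called 0 of the 10 (all genes, 13.2% higher and 0.553% lower), and 0 passed an unadjusted p under 0.05 (all genes, 28.4% higher and 2.02% lower). Leaving out 1 mouse changed the sign of 23 of 80 values, and without Control mouse 1 or without RT 24h mouse 2 all 10 were positive. All ranges overlapped (all genes without overlap, 14.8% higher and 0.897% lower).

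An exact two-sided permutation test of mean TPM gave p-values of 0.0571 to 0.2 over the 10 genes at RM9 RT 3h, 0.0571 to 0.514 at RT 12h and 0.4 to 1 at RT 24h. In MC38 tumors it gave 0.657 to 0.857, 0.171 to 0.257 and 0.6 to 0.743. The smallest p these designs allow is 0.0286. Mice are separate animals with 1 library each, and the p-values weigh group differences against the spread between libraries. That spread holds differences between mice and between the pieces of tissue taken, which cannot be told apart.

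**Figure D3:**
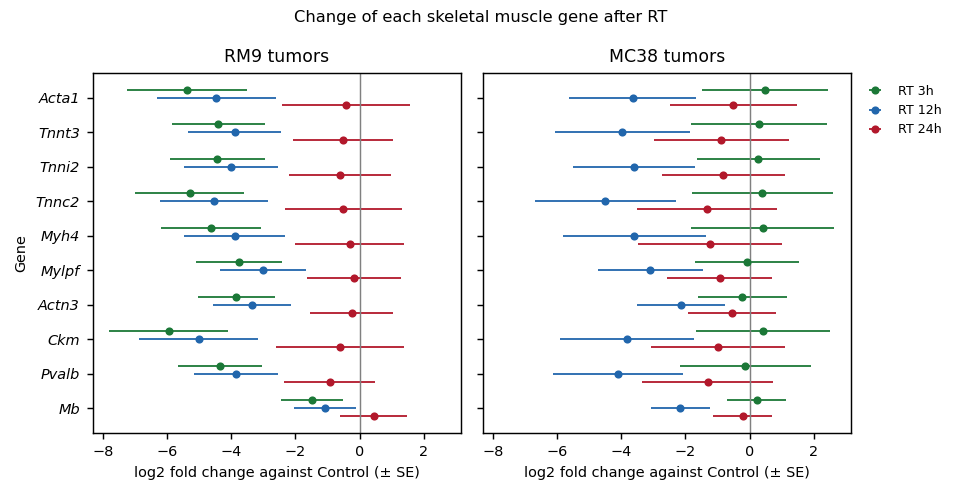
log2 fold change of each gene against Control (x axis; rows are genes) in RM9 (left) and MC38 tumors (right), with SE from limma as bars. RT 3h and RT 12h in RM9 and RT 12h in MC38 lie left of 0 for all 10 genes, at medians of −4.42, −3.89 and −3.62, and the other 3 comparisons lie around 0 within their SE; no point passed the adjusted threshold.

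To determine whether the tumor models differed, the change against Control in MC38 was compared with that in RM9 in 1 fit of all 31 libraries over 15386 genes. At RT 3h the difference was positive for all 10 genes, with a median of 4.70 (all genes, 0.13). Ckm had 6.35 ± 2.98 (SE, adjusted p = 0.490) and was the only one to pass an unadjusted p under 0.05 (all genes, 8.65% higher and 1.23% lower), and limma called 0 of the 10 (all genes, 0% in either direction). At RT 12h the median difference was 0.16 (all genes, 0.50) and at RT 24h −0.38 (all genes, 0.25). limma called 0 of the 10 in both, where it called 44.8% of all genes higher and 0.468% lower at RT 12h, and 1.81% higher and 0% lower at RT 24h. An unadjusted p under 0.05 was reached by 0 of the 10 in both (all genes, 54.7% higher and 0.832% lower, and 21.4% higher and 0.747% lower). Leaving out 1 mouse changed the sign of 45 of 160 values at RT 12h, of 47 of 150 at RT 24h and of 0 of 160 at RT 3h.

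Between the untreated tumors, MC38 Control against RM9 Control, the median log2 difference was −0.81, where the median over all genes was 0.63. limma called 0 of the 10 (all genes, 64.7% higher and 10.7% lower), and 0 passed an unadjusted p under 0.05 (all genes, 76.8% in either direction). All 10 ranges overlapped, with 50.8% of all genes higher and 9.08% lower without overlap. Without MC38 Control mouse 2 the median was 0.81 and all 10 differences were positive.

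Within each tumor model the 10 genes varied together. Across the 15 RM9 libraries, Pearson's r of log2(TPM + 0.5) ran from 0.825 to 0.998 over the 45 pairs (median 0.988), and across the 16 MC38 libraries from 0.861 to 0.998 (median 0.983). Without Mb the lowest values were 0.947 and 0.937. These correlations are descriptions, since the genes share libraries and their levels span 3 orders of magnitude.

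Ratios between the genes were narrower than their levels. In the 10 RM9 and 9 MC38 libraries with at least 10 TPM of Ckm, Acta1 had 1.56 to 2.48 times the TPM of Ckm in RM9 and 1.56 to 2.70 times in MC38. Tnni2 per Ckm was 0.564 to 0.764 and 0.662 to 0.885, and Tnnt3 per Ckm 1.07 to 1.59 and 0.972 to 1.35. Across Acta1, Tnnt3, Tnni2, Tnnc2, Myh4, Mylpf, Actn3 and Pvalb, the highest ratio was 1.34 to 2.70 times the lowest. Mb was the exception, with 0.00133 to 0.0496 per Ckm in RM9, a 37.4-fold range, and 0.0117 to 0.0842 in MC38, a 7.18-fold range. Median ratios of the light chain gene Mylpf were 0.561 in RM9 and 0.997 in MC38, and those of Pvalb 0.123 and 0.242, and these differences between models were not tested.

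Myosin heavy chains mark the fibre type: Myh4 the fastest fibres, Myh1 and Myh2 the intermediate fast fibres, and Myh7 slow fibres. Their summed TPM reached at least 1 in 12 RM9 and 14 MC38 libraries. Myh4 took 82.2% to 95.5% of it in 10 RM9 libraries and 80.2% to 92.7% in 9 MC38 libraries. The remaining RM9 libraries were RT 3h mouse 1, with 4.81% Myh4, 53.2% Myh1 and 42.0% Myh2 of 2.78 TPM, and RT 12h mouse 2, with 3.89%, 50.2% and 45.7% of 1.85 TPM. In RM9 RT 12h mouse 4, where the sum was also low at 4.17 TPM, Myh4 took 87.4%. Low sums thus did not always go with a low share of Myh4.

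Of the MC38 libraries, RT 24h mouse 4 had the largest sum without a majority of Myh4, 8.20 TPM, with 6.08% Myh4, 69.0% Myh1, 19.6% Myh2 and 5.30% Myh7. RT 3h mouse 3 had 30.2% Myh4 and 55.4% Myh1 of 4.71 TPM, and RT 12h mouse 1 had 8.37% Myh4, 59.9% Myh1, 18.3% Myh2 and 13.4% Myh7 of 2.70 TPM. RT 12h mouse 3 had 26.1% Myh4, 38.1% Myh1 and 30.8% Myh7 of 1.03 TPM. RT 24h mouse 2 had 0% Myh4, 37.3% Myh1 and 62.7% Myh7 of 1.05 TPM. Control mouse 3, with a sum of 6.65 TPM between those of RT 24h mouse 4 and RT 3h mouse 3, had 80.2% Myh4. Without a majority of Myh4, Mb per Ckm was 0.620 to 1.37 in RM9 and 0.297 to 0.625 in MC38 libraries. With a majority it was at most 0.0496 and 0.0842. In RM9 RT 3h mouse 1, Mb was at 0.328 TPM beside 0.529 TPM of Ckm. It was at 5.42 TPM beside 8.67 TPM in MC38 RT 24h mouse 4, and at 4.40 TPM beside 8.52 TPM in MC38 RT 3h mouse 3. In the RM9 libraries without a majority, both genes were under 1 TPM.

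**Figure D4:**
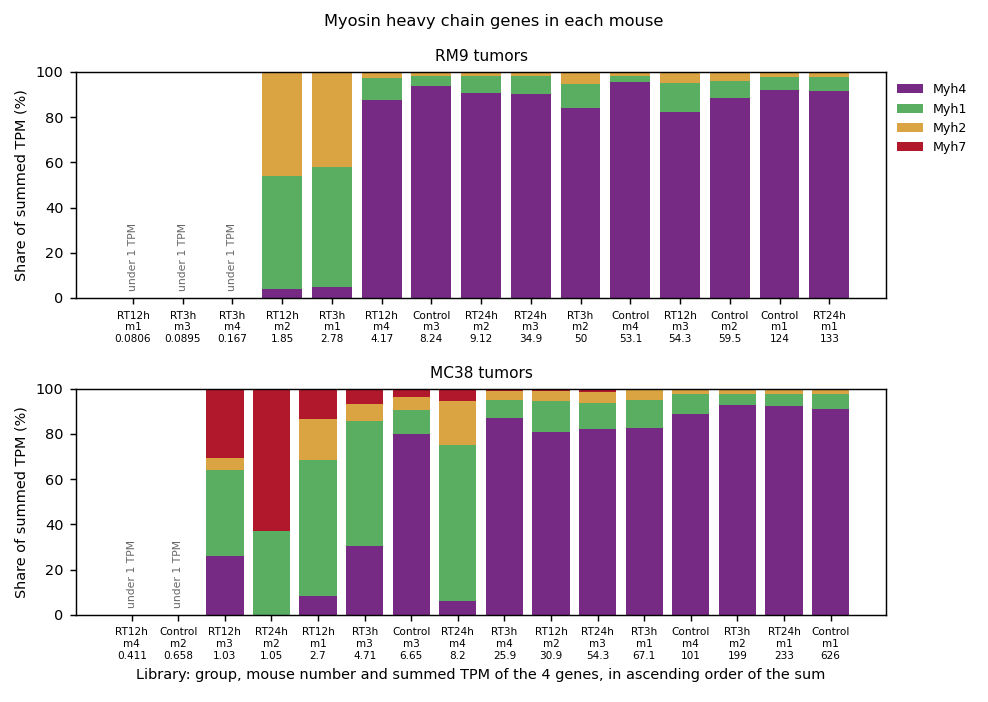
Share of Myh4, Myh1, Myh2 and Myh7 in their summed TPM (y axis, percent) in each library, ordered by that sum, which stands below each bar with group and mouse (m). Libraries under 1 TPM have no bar; purple Myh4 takes 80.2% to 95.5% in most bars, and the bars led by Myh1 or Myh7 all lie at sums of 8.20 TPM or less.

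A wider list of 30 fast-fibre and pan-fibre genes was described beside the 10, together with 8 slow-fibre genes and 12 genes of myogenic, regenerating or developing muscle. Of the 30, 29 in RM9 and 28 in MC38 had an r of at least 0.8 with Ckm across libraries. The exceptions were Myh2 in RM9 (0.70) and 2 subunits of cytochrome c oxidase in MC38, Cox6a2 (0.79) and Cox7a1 (0.32). Myl1, the fast essential light chain, was at 187, 112, 19.9 and 109 TPM in RM9 Control and at 1497, 1.75, 13.8 and 251 TPM in MC38 Control, the same order of mice as Ckm in MC38 and in RM9. Atp2a1, the calcium pump of fast fibres, reached 127 TPM in RM9 and 536 TPM in MC38 tumors, and Mybpc2, the fast myosin binding protein, 78.8 and 278 TPM. Eno3, muscle enolase, was never near 0: its lowest level was 10.6 TPM in RM9 and 11.8 TPM in MC38 tumors, where Ckm reached 0 and 1.10 TPM.

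The median log2 fold change of the 30 genes was −1.97, −1.96 and −0.26 at RT 3h, RT 12h and RT 24h in RM9 tumors and −0.07, −2.08 and −0.57 in MC38 tumors. Of the 30, limma called 1 lower at RM9 RT 12h and 1 lower at MC38 RT 12h, and 0 in the other 4 comparisons. Among all genes, 8.26% were called lower at RM9 RT 12h and 2.58% at MC38 RT 12h. An unadjusted p under 0.05 was reached by 21 of the 30 at RM9 RT 3h and by 20 at RM9 RT 12h, all lower (all genes, 6.13% and 30.5% lower). It was reached by 5 at MC38 RT 12h, all lower (all genes, 4.06% lower), and by 0 at RM9 RT 24h, MC38 RT 3h and MC38 RT 24h. The 2 called genes are named because so few were called. Cox8b, a subunit of cytochrome c oxidase in muscle, was called at RM9 RT 12h, with a log2 fold change of −2.89 ± 0.84 (SE, adjusted p = 0.0479). Its TPM was 12.3, 10.2, 2.44 and 5.37 in Control and 0, 0, 3.77 and 0.243 at RT 12h, which overlap through mouse 3. The call held in 2 of 8 fits without 1 mouse, those without Control mouse 3 or RT 12h mouse 3, and was lost without Control mouse 1, 2 or 4 or RT 12h mouse 1, 2 or 4 (adjusted p up to 0.128). It was also lost in 7 of 9 other alternatives, so Cox8b stood at the threshold. Sln, sarcolipin, an inhibitor of the muscle calcium pump, was called at MC38 RT 12h, with −3.41 ± 1.05 (SE, adjusted p = 0.0282). Its TPM was 38.6, 1.09, 3.03 and 11.7 in Control and 0, 1.19, 0 and 0 at RT 12h, and RT 12h mouse 2 overlapped Control mouse 2. This call was lost without Control mouse 1 or 4 or RT 12h mouse 1, 3 or 4 (adjusted p up to 0.105) and in 2 of 9 other alternatives.

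Slow-fibre genes did not follow the 10 genes closely. Only 1 of 8 in each model had an r of at least 0.8 with Ckm, Casq2 in RM9 (0.84) and Myoz2 in MC38 (0.80). Tnnt1, the slow troponin T, was at 0.201 to 1.64 TPM in RM9 and at 5.11 to 17.5 TPM in MC38 libraries, including 6.31 TPM in MC38 Control mouse 2, where Ckm was 1.59 TPM. It was higher in MC38 Control than in RM9 Control (log2 difference 3.15 ± 0.31 SE, limma adjusted p = 7.38e-10), where 64.7% of all genes were called higher. Tnni1, the slow troponin I, was called lower at MC38 RT 12h (log2 fold change −1.19 ± 0.44 SE, limma adjusted p = 0.0496). Its TPM was 10.5, 1.82, 3.59 and 6.89 in Control and 1.39, 1.78, 2.29 and 1.90 at RT 12h, and the ranges overlapped through Control mouse 2. The call held only without Control mouse 2 or 3 and was lost without Control mouse 1 or 4 or any 1 RT 12h mouse (adjusted p up to 0.186), and in 5 of 9 other alternatives. Tnni1 was the only slow-fibre gene called in the 6 comparisons with Control. Its change at RT 12h also differed between the tumor models (MC38 minus RM9, log2 difference −1.80 ± 0.57 SE, limma adjusted p = 0.0152), where 0.468% of all genes were called lower. That call was lost in 1 of 16 fits without 1 mouse (without MC38 Control mouse 1, adjusted p = 0.0509) and in 1 of 8 other alternatives. In RM9 tumors Tnni1 was at 1.97 to 9.08 TPM and had an r of 0.01 with Ckm. Tnnc1, the slow troponin C, was at 1.15 to 3.88 TPM in RM9 and 1.03 to 9.07 TPM in MC38 libraries, and Myl2, a slow light chain, was at 0 in 13 of 15 RM9 libraries.

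Of the 12 myogenic and developing muscle genes, 4 in RM9 and 5 in MC38 had an r of at least 0.8 with Ckm, and limma called 0 in each of the 6 comparisons with Control. At an unadjusted p under 0.05, 1, 0 and 2 passed in RM9 and 0, 0 and 1 in MC38 tumors at RT 3h, RT 12h and RT 24h. The shares of all genes were 15.7% higher and 6.13% lower at RM9 RT 3h, 2.02% and 2.89% at RM9 RT 24h, and 28.4% and 2.02% at MC38 RT 24h. Myh8, the perinatal myosin, followed Ckm with an r of 0.89 in RM9 and 0.96 in MC38, but its highest level was 3.40 and 16.1 TPM. Actc1, cardiac actin, which developing muscle also makes, reached 2.16 and 32.5 TPM, and Myog, the transcription factor myogenin, 2.40 and 6.50 TPM. Chrna1, a subunit of the acetylcholine receptor, stayed between 1.69 and 6.38 TPM in RM9 libraries (r = 0.53), whereas in MC38 libraries it ran from 0 to 10.1 TPM (r = 0.93).

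Over all genes whose mean reached 1 TPM, likeness was measured as Pearson's r with the mean log2(TPM + 0.5) of the 10 genes. The 10 most similar in RM9 were Myl1, Atp2a1, Mybpc2, Des, Pdlim3, Ankrd23, Cox6a2, Tcap, Casq1 and Eef1a2 (r = 0.987 to 0.997, 15 libraries). In MC38 they were Atp2a1, Myl1, Mybpc2, Tcap, Pdlim3, Pgam2, Hspb7, Eef1a2, Mustn1 and Des (r = 0.985 to 0.997, 16 libraries). Des encodes desmin, the intermediate filament of muscle, Tcap a titin-binding protein of the Z-disc, Casq1 the calcium store protein calsequestrin and Pgam2 the muscle form of phosphoglycerate mutase. An r of at least 0.8 was reached by 166 of 12685 genes (1.31%) in RM9 and by 187 of 14225 (1.31%) in MC38, and 89 genes did so in both, which are 53.6% and 47.6% of the lists.

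At the other end, the lowest r in RM9 belonged to Gdpd1 (−0.88), Gpnmb, Ndrg4, Lims2 and BC022687 (−0.81), and in MC38 to Aire (−0.93), Rgs11, Slc7a11, Wdr13 and Btbd19 (−0.90). An r of −0.8 or less was reached by 8 of 12685 genes in RM9 and by 373 of 14225 in MC38 tumors. In MC38 the median over all tested genes also fell as Ckm rose (below). The part of that shift in these values was not tested. Slc7a11, the cystine transporter, ran from 3.44 to 15.5 TPM in MC38, a much narrower span than the muscle genes.

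To determine whether muscle RNA went with other differences between mice, Ckm was correlated with 12 measures in each tumor model, 24 relations in all, with permutation p-values adjusted over the 24. In 5 relations both Pearson's r and Spearman's rho passed an adjusted p under 0.05. With the mean log2(TPM + 0.5) of 8 adipocyte genes, Ckm had r = 0.79 (permutation adjusted p = 0.0134) and rho = 0.75 (0.0171) in RM9 and r = 0.59 (0.0468) and rho = 0.62 (0.0445) in MC38. With 8 tendon and fascia genes it had r = 0.65 (0.0247) and rho = 0.79 (0.0101) in RM9 and r = 0.76 (0.0134) and rho = 0.78 (0.0101) in MC38. With the median log2(TPM + 0.5) over all tested genes, it had r = −0.66 (0.0206) and rho = −0.62 (0.0445) in MC38 and r = 0.09 (0.830) in RM9. Without the 2 libraries farthest from the median Ckm, r was 0.71, 0.46, 0.58, 0.64 and −0.50 in the same order, and 0 of the 24 relations passed (smallest adjusted p = 0.0845), so the calls did not hold without those libraries, with fewer libraries and a narrower range of Ckm. With median-ratio scaling, the relation with the median over genes in MC38 was lost (r = −0.19, permutation adjusted p = 0.600). That scaling levels the libraries on nearly the same genes, so this loss was built in and is no check of the relation. On deviations from group means, r was 0.63, 0.78, 0.49, 0.90 and −0.67. There the tendon list in RM9 (r = 0.49) no longer passed both tests, whereas the relations in MC38 did.

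The adipocyte genes differed in how they went with Ckm. Car3, carbonic anhydrase 3, which skeletal muscle also makes, had an r of 0.88 with Ckm in RM9 and 0.94 in MC38, and Plin4 of 0.76 and 0.81, whereas Adipoq, the adipocyte hormone adiponectin, had 0.43 and 0.12. Car3 was at 16.7, 15.8, 3.30 and 5.94 TPM in RM9 Control and at 143, 0.884, 2.55 and 27.8 TPM in MC38 Control. Adipoq was listed at 0 in 9 of 15 RM9 libraries and 1 of 16 MC38 libraries, Plin1 in 12 and 11, and Retn in all 15 and in 12. The summed TPM of this list ran from 0.170 to 25.4 in RM9 groups and from 2.06 to 152 in MC38 groups. Car3 alone reached 23.5 TPM in RM9 RT 12h, where the highest sum was 25.4 TPM. It reached 143 TPM in MC38 Control, where the highest sum was 152 TPM. The genes named from this list were singled out after their values were seen, and the part of adipocytes in the differences above was not tested.

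Of the tendon and fascia genes, Thbs4, thrombospondin 4, had an r with Ckm of 0.73 in RM9 and 0.85 in MC38, and Scx, the tendon transcription factor scleraxis, of 0.45 and 0.88. The genes of this list differed in how they went with Ckm. Their r ran from −0.35 to 0.73 in RM9 (median 0.27) and from −0.48 to 0.88 in MC38 (median 0.58). An r of at least 0.8 was reached by 0 of them in RM9 and by 2 in MC38. Thbs4 was at 90.5, 8.01, 16.01 and 33.3 TPM in MC38 Control and at 10.8, 35.3, 13.1 and 2.79 TPM at RT 12h, highest in the mouse of each group with the most Ckm. Scx was at 12.5 to 24.6 TPM in all RM9 libraries and at 0 to 2.19 TPM in MC38 libraries, and Tnmd, tenomodulin, was listed at 0 in 13 of 15 RM9 and 9 of 16 MC38 libraries. The summed TPM of the list ran from 12.6 to 39.4 in RM9 and from 2.99 to 104 in MC38 groups. Its part in the differences was not tested.

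The mitochondrially encoded share of TPM, which sets how much TPM is left for all other genes, went with Ckm in MC38 by Pearson's r only (r = 0.57, permutation adjusted p = 0.0468, rho = 0.42, 0.224), and likewise mt-Nd4l alone (r = 0.61, 0.0319, rho = 0.46, 0.205). MC38 Control mouse 1 had the most Ckm and the highest mitochondrial share, 40.6%. Without it the share had r = 0.40 (0.218 over 12 relations), and the tendon list r = 0.68 (0.0395) and rho = 0.73 (0.0301). The adipocyte list (r = 0.51) and the median over tested genes (r = −0.55) no longer passed in MC38 without this mouse. The smaller permutation adjusted p of Pearson's r for these 2 was 0.143. In RM9 the share had r = −0.25 (0.525). Leukocyte genes in RM9 (rho = 0.68, adjusted p = 0.0343) and epidermis genes in MC38 (rho = −0.69, 0.0242) passed by permutation of Spearman's rho only. Read depth did not pass in either model (r = −0.42, adjusted p = 0.219, and r = 0.18, 0.626).

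The CXCR2 ligand genes Cxcl1, Cxcl2, Cxcl3, Cxcl5 and Ppbp, which encode the neutrophil attractants that the study followed, had r = 0.01 with Ckm in RM9 (permutation adjusted p = 0.973) and r = −0.31 in MC38 (adjusted p = 0.355). On deviations from group means these were 0.05 and −0.45 (adjusted p = 0.158). Among the 5 genes no r with Ckm reached 0.8 in either direction: r lay between −0.11 and 0.18 in RM9 and between −0.56 and 0.05 in MC38 libraries.

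**Figure D5:**
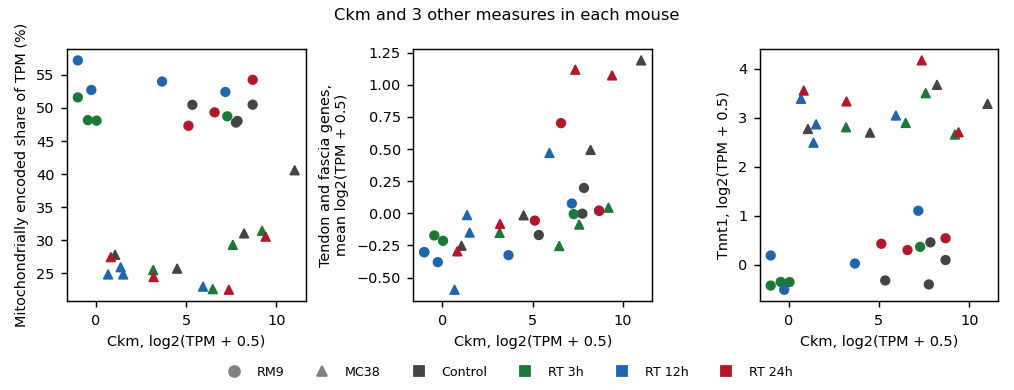
Ckm (x axes, log2(TPM + 0.5)) against the mitochondrially encoded share of TPM, the mean log2(TPM + 0.5) of 8 tendon and fascia genes, and Tnnt1, for each mouse (circles RM9, triangles MC38, colors by group). The MC38 library with the most Ckm has a share of 40.6%, the tendon genes have r = 0.65 (RM9) and 0.76 (MC38) with Ckm, and Tnnt1 splits by tumor model at every level of Ckm.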

How the data were processed

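mRNA-Seq of 31 tumors, 1 library per mouse, was deposited as 1 table per library of 46072 genes. TPM was computed by the authors within each library, with FPKM and a per-base coverage also deposited for every gene. Stranded mRNA libraries were made, the submitters' notes list bcl2fastq 2.17 and build GRCm39, and the aligner and counter are not given in the sources used here. The coordinates matched GENCODE M21 (GRCm38) for 91.1% of 45223 shared genes by start or end. Rows of 1 gene were summed. Depth (21.4 to 29.4 M reads) came from coverage and FPKM at 75 bases per read. No read counts were used, so no counting error is given.

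log2(TPM + 0.5) was fitted with limma 3.58.1 (R 4.3.3, trend), 4 groups per model, for genes whose mean reached 0.5 TPM and all listed genes, with Benjamini-Hochberg adjustment and a threshold of 0.05. A fit of all 31 libraries compared the models. Exact permutation tests compared mean TPM. Correlations used 100000 permutations. The fit was tested on simulated data. Tables and permutations used scipy 1.17.1 and pandas 2.3.3 with numpy 2.4.6 (Python 3.11.15), and plots matplotlib 3.10.9.

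Named genes were all 10, the 4 highest of each further muscle list, the myosin heavy chains, and in each model the 10 genes most and 5 least like the 10 genes. The genes and lists were chosen with earlier results of these data known, and genes named outside the rule after their values were seen. Alternatives changed the pseudocount (0.1 or 1), the scaling (median ratios, or TPM recomputed after removing mitochondrially encoded genes) and the filter (none, or 5 TPM), or used only the compared groups, no trend, the mouse number as a block, and each mouse left out.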

Additional observations from a re-analysis of the deposited data

Results flagged for a closer look

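In 70 tests of the 10 genes over the 7 groups of 4 mice, 9 found a mouse far from the others of its group by Dixon's test. Chance alone flags about 1 of 20 where values are normally distributed. Levels here pile up at 0, so the 9 cannot be set against that rate. Where all other mice are at 0, any level above 0 is flagged. The genes share their libraries, so the 9 flags are not separate findings. In MC38 RT 12h, mouse 2 stood above the others with Ckm at 60.7 TPM (others 1.10 to 2.36), Myh4 at 24.9 TPM (0 to 0.269), Actn3 at 15.4 TPM (2.58 to 3.40) and Pvalb at 17.9 TPM (0 in all others). In RM9 RT 3h, mouse 2 stood above the others with Ckm at 155 TPM (0 to 0.529), Myh4 at 42.1 TPM (0 to 0.134), Actn3 at 22.8 TPM (0.173 to 0.538) and Pvalb at 16.7 TPM (0 to 0.102). In RM9 Control, mouse 3 stood below the others with Pvalb at 4.74 TPM (40.2 to 50.4).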

How the results depend on the processing

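In all 10 comparisons, limma called 0 of the 10 genes under every alternative that kept all mice. With the mouse number as a block, the smallest adjusted p was 0.0667, at MC38 RT 12h. The numbers gave no sign of pairing the mice. Same-numbered mice of different groups deviated with correlations of −0.39 to 0.32 in RM9 and −0.48 to 0.55 in MC38. These were over 0.1 in 5 of 21 and 7 of 24 pairs. For differently numbered mice the correlations were −0.45 to 0.56 and −0.60 to 0.60, over 0.1 in 23 of 63 and 28 of 72 pairs. Leaving out each mouse gave 0 to 7 calls at RM9 RT 12h and 0 to 7 at MC38 RT 12h, and 0 in the other comparisons. Of the fold changes of single genes, 6 reversed with all mice kept: Pvalb at MC38 RT 3h (0.38, pseudocount 0.1), Tnnt3 (0.00059, pseudocount 1) and Tnnc2 (−0.046, median-ratio scaling) in the difference between models at RT 12h, Acta1 in that at RT 24h (0.11, replicate block), and Mylpf between the Controls (−0.34, median-ratio scaling, and −0.11, without mitochondrially encoded genes). The number of Ckm relations that passed both tests was 5, 3 with a pseudocount of 0.1, 3 with median-ratio scaling and 0 without the 2 farthest libraries. It was 4 to 5 in the other 3 alternatives, of which 1 used deviations from group means. Median-ratio scaling itself levels the median over genes, so the loss of that relation in MC38 was built in. The cause of the other losses was not tested. Leaving out MC38 Control mouse 1 from the correlations was chosen after seeing the data. TPM carries no counts, so counting error was not modelled.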
